A study of Homo sapiens with 23 samples.

Results

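The 9 genes described here encode parts of laminin-332, an adhesive protein that epithelial cells lay down in the basement membrane, and of the hemidesmosome, the junction that anchors epithelial cells to it. They are LAMA3, LAMB3, ITGA6, ITGB4, ITGA3, CD151, COL17A1, PLEC and DST. RefSeq transcript rows were matched to gene symbols, the row with the highest mean read count stood for each gene, and the 9 members were taken by name from the 28105 genes so formed. All 9 passed the filter on low counts, among 16831 genes tested.

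The measurements are poly(A) RNA-seq of HCT116, an established human colorectal cancer cell line, grown in McCoy's 5A medium with serum. The question behind the design is how expression depends on MLL4, a histone H3 lysine 4 methyltransferase encoded by KMT2D, and on BAP1, a deubiquitinase of histone H2A. There were 2 libraries in each of 4 groups, namely MLL4 knockout cells (MLL4 KO) with their wild-type reference (WT), and BAP1 knockout cells (BAP1 KO) with a reference titled control, which the labels also list as WT by genotype. The deposited tables of the BAP1 KO and control libraries carry osTir1 in their names, those of the MLL4 KO and WT libraries do not, and each knockout was therefore set against its own reference. Nothing in the labels says whether the libraries of a group came from separate cultures or clones. The p-values therefore measure the spread between libraries, which may be technical. Except in fits on 4 libraries, that spread was estimated over all 4 groups together, not only over the 2 groups compared. It was unequal among groups. The median absolute log2 difference between replicates was largest for WT (0.233), followed by MLL4 KO (0.179), BAP1 KO (0.156) and control (0.0822).

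The gene rows summed to 24.8 to 42.2 M counts per library (M, 1e6). KMT2D transcripts stood at 280 and 406 TMM-scaled CPM (counts per 1e6) in MLL4 KO libraries and at 309 and 371 CPM in WT libraries, and BAP1 transcripts at 67.4 and 57.4 CPM in BAP1 KO libraries and at 56.7 and 62.1 CPM in control libraries. Neither differed past the test (adjusted p = 0.970 and 0.746), so transcript level does not check the knockout labels. All 6 epithelial markers were detected. Of 4 colon markers, CDX2 was at 10.7 to 19.3 CPM and VIL1 at 11.9 to 17.2 CPM over all libraries. CDX1 had no read in any library, and LGALS4 had at most 0.287 CPM in any library. Endothelial and leukocyte markers summed to at most 0.228 CPM and 0.128 CPM per library.

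In skin and other stratified or glandular epithelia, laminin-332 is secreted as a trimer and is bound from the cell side by the integrin made of the ITGA6 and ITGB4 chains. The long cytoplasmic tail of the ITGB4 chain recruits plectin, the product of PLEC, while the epithelial form of dystonin, from DST, and collagen XVII, from COL17A1, complete the link to keratin filaments. The integrin with the ITGA3 chain binds the same laminin in focal adhesions, and the tetraspanin CD151 associates with both laminin-binding integrins.

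The members did not move in 1 direction. In MLL4 KO cells the receptor chains ITGB4 and ITGA3 and the linker PLEC rose, with ITGB4 at 5.36-fold the WT level, LAMA3 fell to a limited extent, and the other 5 members did not pass the test. In BAP1 KO cells the laminin chains LAMA3 and LAMB3 and the transmembrane collagen COL17A1 fell, LAMA3 to a level 28.2-fold lower than control, ITGA3, PLEC and ITGA6 fell by less, DST rose 6.84-fold and ITGB4 rose slightly. In bulk RNA, fewer cells of a type and less RNA per cell cannot be told apart.

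Of the 9 members, 4 passed an adjusted p of 0.05 in edgeR's quasi-likelihood test with Benjamini-Hochberg adjustment for MLL4 KO against WT, 3 higher and 1 lower. Of all tested genes 19.1% passed, 9.13% higher and 10% lower. For BAP1 KO against control 8 of 9 passed, 2 higher and 6 lower. Of all tested genes 22.4% passed, 12.1% higher and 10.4% lower. The median log2 fold change of the members was 0.30 in MLL4 KO, against 0.004 over all tested genes, and -0.65 in BAP1 KO, against 0.013 over all tested genes. The libraries of both groups did not overlap for 5 of 9 members in MLL4 KO against WT, where 60.3% of tested genes did not overlap, and for 8 of 9 in BAP1 KO against control, where 72.2% did not. LAMA3, ITGB4, ITGA3 and PLEC passed in both knockouts, 4 of 9 members where 5.99% of tested genes did so. LAMA3 and ITGB4 kept 1 direction, while ITGA3 and PLEC took opposite ones. The members were chosen with earlier results of these data known, so these shares do not test the set. Fitting the MLL4 KO and WT libraries on their own left 60 genes called, or 0.367%, and of the members only ITGB4. The same fit of the BAP1 KO and control libraries called 41.6% of genes and 8 members. Without control replicate 1 or 2 the model over the remaining libraries called 3 members in BAP1 KO, namely LAMA3, COL17A1 and DST, and without BAP1 KO replicate 1 it called 5.

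**Figure D1:**
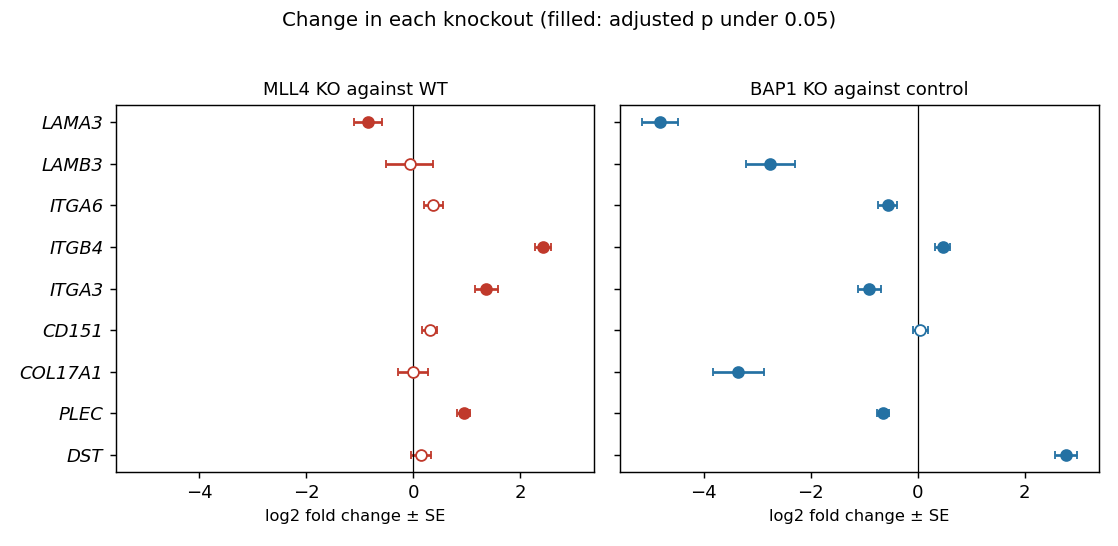
The log2 fold change with its SE (x axis) is drawn for each of the 9 genes in MLL4 KO against WT (left) and BAP1 KO against control (right), filled where the adjusted p was under 0.05. LAMA3, LAMB3 and COL17A1 lie far below 0 in BAP1 KO, while ITGB4 is the gene farthest above 0 in MLL4 KO and DST in BAP1 KO.

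Per transcript length, the members spanned more than 3 orders of magnitude. On the deposited RPKM scale, which divides reads by transcript length and library size, the integrin chains ITGA3 and ITGB4, CD151 and PLEC were the most abundant, with group means between 56.4 RPKM (ITGB4 in WT) and 342 RPKM (ITGA3 in control). ITGA6 had group means of 21.6 to 32.5 RPKM, LAMB3 8.22 to 53.6 RPKM and DST 6.56 to 46.6 RPKM. LAMA3 and COL17A1 were the scarcest, with group means of 0.06 to 1.51 RPKM for LAMA3 and 0.05 to 0.64 RPKM for COL17A1. In control libraries the LAMB3 row averaged 53.6 RPKM, the long LAMA3 row 1.51 RPKM and the short LAMA3 row, which encodes the alpha chain of epithelial laminin-332, 2.82 RPKM.

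**Figure D2:**
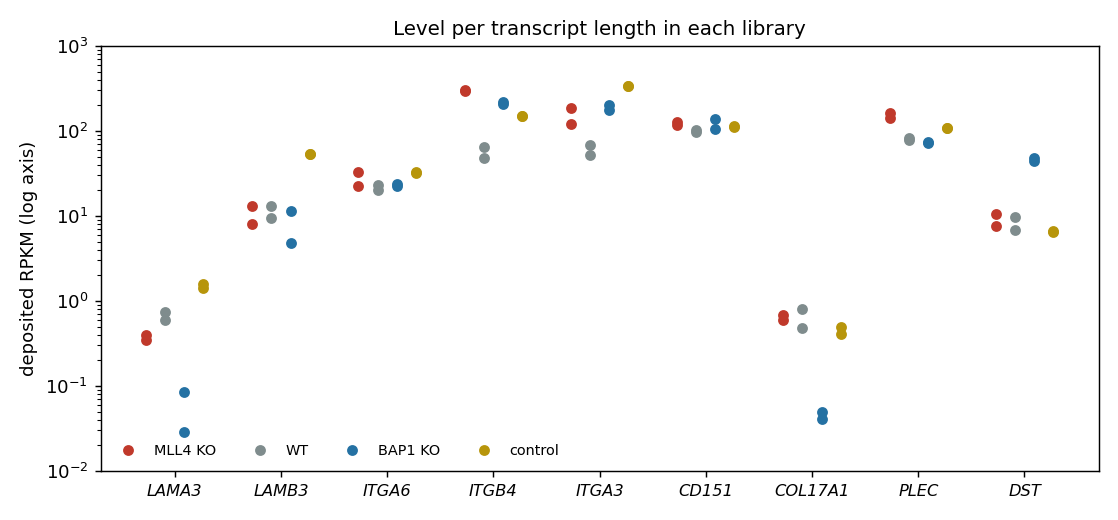
Deposited RPKM on a log axis is shown for every library, with the genes along the x axis and the 4 groups in colour. ITGB4, ITGA3, CD151 and PLEC are near or above 50 RPKM in all 8 libraries, and LAMA3 and COL17A1 are at or below about 1 RPKM in all but the control libraries of LAMA3.

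LAMA3 encodes the alpha chain through which laminin-332 is bound by integrins, and lies at chr18:23689453-23955066 (GRCh38.p14). The LAMA3 level was 4.64 and 5.30 CPM in MLL4 KO libraries, against 7.87 and 10.0 CPM in WT libraries. Both MLL4 KO libraries lay below both WT libraries. The log2 fold change was -0.86 ± 0.26 (SE, adjusted p = 0.0475), and it passed the threshold in 9 of 22 alternative analyses, with adjusted p up to 0.219. It was 0.139 or 0.133 without MLL4 KO replicate 1 or 2, 0.219 without WT replicate 2, and 0.102 or 0.0949 without control replicate 1 or 2. The LAMA3 level in BAP1 KO libraries was 0.383 and 1.14 CPM, from 12 and 32 reads, against 20.1 and 22.0 CPM in control libraries, from 513 and 859 reads. The BAP1 KO libraries differed about 3-fold between themselves and were both the lowest of the 8, far from the control libraries, which were the highest. The log2 fold change was -4.82 ± 0.34 (adjusted p = 4.90e-05), ranking 31 of 16831 genes by p.

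The short LAMA3 transcript, which encodes the alpha chain of epithelial laminin-332 and starts within the gene, was read beside the long one. Counts in its row were 82.4% and 79.0% of the long row in MLL4 KO libraries and 91.6% and 82.8% in WT libraries. They were 66.7% (8 of 12 reads) and 103% (33 of 32 reads) in BAP1 KO libraries and 97.9% and 99.2% in control libraries. The rows share exons, and a read in a shared exon appears to stand in both, so these shares are not isoform proportions.

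LAMB3, at chr1:209614870-209652425 on the minus strand, encodes the beta chain of laminin-332. Its level was 39.9 and 67.4 CPM in MLL4 KO libraries, against 46.0 and 66.5 CPM in WT libraries. The MLL4 KO libraries enclosed the WT libraries, and the log2 fold change of -0.07 ± 0.44 did not pass (adjusted p = 0.926). LAMB3 in BAP1 KO libraries was at 24.5 and 59.0 CPM, against 283 and 280.3 CPM in control libraries. The control libraries nearly coincided and stood above the other 6, among which the groups overlapped. The LAMB3 log2 fold change was -2.76 ± 0.46 (adjusted p = 0.00831), a level 6.76-fold lower in BAP1 KO than in control, and without control replicate 1 or 2 the adjusted p was 0.0516 or 0.0517.

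Because LAMA3, LAMB3 and COL17A1 were the members that fell most in BAP1 KO cells, and DST the one that rose most, a promoter window of each is printed here from RefSeq (GRCh38.p14), 250 bases before to 50 after a transcript start, 5′ to 3′ on the gene's strand. Capitals mark TGANTCA, the AP-1 motif, which was searched on both strands and reads the same in pattern on each.
LAMA3, chr18:23872770-23873069, plus strand: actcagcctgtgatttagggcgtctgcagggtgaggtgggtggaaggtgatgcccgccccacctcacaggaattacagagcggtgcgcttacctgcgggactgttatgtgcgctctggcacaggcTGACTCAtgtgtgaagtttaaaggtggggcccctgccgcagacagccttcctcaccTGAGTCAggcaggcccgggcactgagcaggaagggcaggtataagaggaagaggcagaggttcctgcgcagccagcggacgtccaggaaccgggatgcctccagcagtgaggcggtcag
LAMB3, chr1:209651325-209651624, minus strand: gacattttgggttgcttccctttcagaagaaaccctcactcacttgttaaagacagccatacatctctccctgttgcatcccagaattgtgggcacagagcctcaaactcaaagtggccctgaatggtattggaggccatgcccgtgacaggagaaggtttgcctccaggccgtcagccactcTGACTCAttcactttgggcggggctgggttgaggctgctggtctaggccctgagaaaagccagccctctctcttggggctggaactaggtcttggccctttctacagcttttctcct
COL17A1, chr10:104085831-104086130, minus strand: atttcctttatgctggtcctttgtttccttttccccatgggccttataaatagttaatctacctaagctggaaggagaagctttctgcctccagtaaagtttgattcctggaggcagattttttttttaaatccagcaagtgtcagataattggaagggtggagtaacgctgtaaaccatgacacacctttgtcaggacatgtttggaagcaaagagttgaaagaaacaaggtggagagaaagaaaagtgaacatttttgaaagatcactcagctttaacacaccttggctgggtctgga
DST, chr6:56954781-56955080, minus strand: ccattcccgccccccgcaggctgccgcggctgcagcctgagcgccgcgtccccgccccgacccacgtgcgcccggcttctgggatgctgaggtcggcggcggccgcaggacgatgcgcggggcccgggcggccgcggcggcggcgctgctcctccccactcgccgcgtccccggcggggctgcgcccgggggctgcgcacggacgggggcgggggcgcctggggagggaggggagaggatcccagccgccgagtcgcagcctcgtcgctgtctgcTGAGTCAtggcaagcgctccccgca

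The LAMA3 window, which belongs to the start inside the gene, held 2 matches, 125 and 69 bases before the start. Of all 35116 promoter windows in the table, 2707 (7.71%) held at least 1 match and 181 (0.515%) at least 2. The LAMB3 window held 1 match, 67 bases before its start, and the other 2 LAMB3 windows held none. The DST window held 1 match, 25 bases after its start, and neither of the other DST windows had one. For LAMB3 and DST, the window printed is thus the only one of the gene with a match. The printed DST window belongs to the start at the 5′ end of the gene, and the other DST windows to starts inside it. Which of these starts serves the epithelial form of DST was not determined, so the match is not assigned to that form. No match was found in the COL17A1 window or in the 2 ITGA6 windows. The grainyhead-like motif AACCGGTT, which occurs in 47 of all windows (0.134%), was in none of the 10 windows of these 5 genes. A match describes these letters and not binding.

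**Figure D3:**
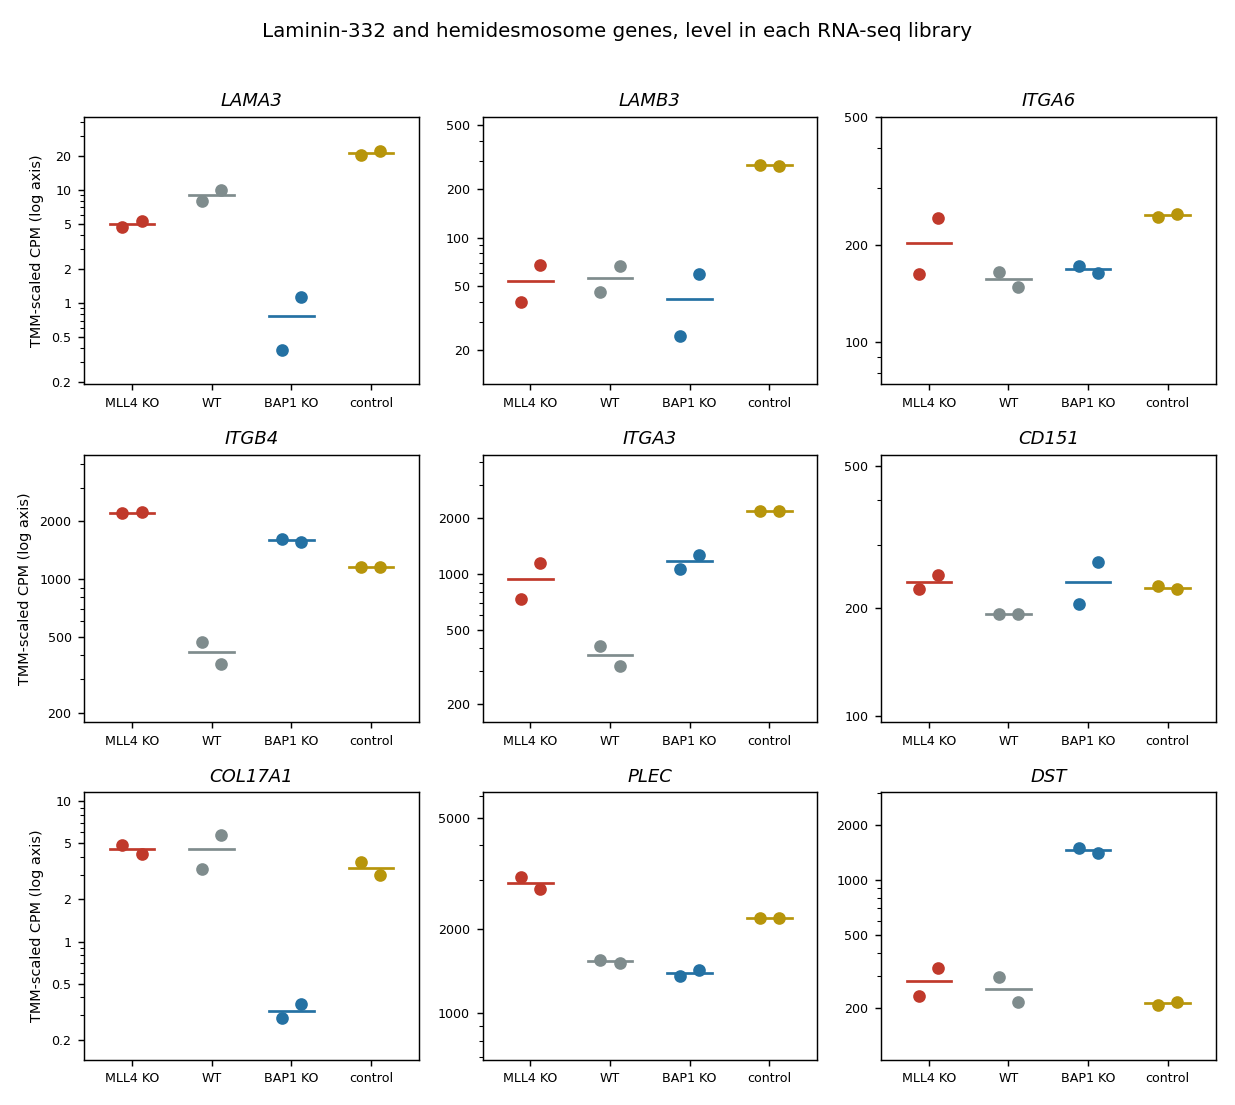
TMM-scaled CPM on a log axis is shown for the 9 genes, 1 panel each, with a point per library and a line at the mean of each group. LAMA3, ITGB4 and PLEC separate all 4 groups, LAMB3 sets only the control libraries apart, and COL17A1 sets only the BAP1 KO libraries far apart.

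ITGB4 encodes the integrin chain that is particular to hemidesmosomes among the laminin receptors, and lies at chr17:75721459-75757818. It stood at 2207 and 2229.9 CPM in MLL4 KO libraries, against 470.2 and 357 CPM in WT libraries. The MLL4 KO libraries differed from each other by far less than from either WT library. With a log2 fold change of 2.42 ± 0.15 (adjusted p = 0.000549), ITGB4 ranked 1 of 16831 tested genes by p and 272 by size. It was called in all 23 alternative analyses, with log2 fold changes of 2.24 to 2.63 and adjusted p of at most 0.0221. In BAP1 KO libraries ITGB4 was at 1622 and 1566 CPM, against 1150.2 and 1158 CPM in control libraries. The groups did not overlap, and the change was small, at a log2 fold change of 0.47 ± 0.14 (adjusted p = 0.0439), with the call lost in 9 of 21 alternatives. The adjusted p was 0.167 or 0.0990 without BAP1 KO replicate 1 or 2, 0.237 or 0.238 without control replicate 1 or 2, and 0.0505 or 0.0533 without MLL4 KO replicate 1 or 2. All 4 groups were apart, in the order MLL4 KO, BAP1 KO, control and WT from high to low.

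The 3′ part of ITGB4 overlaps GALK1, the galactokinase gene, at chr17:75751469-75765192. Without a stated strand setting, reads in the overlap cannot be assigned to either gene. GALK1 averaged 47.0 CPM in MLL4 KO libraries and 28.4 CPM in WT libraries (log2 fold change 0.73 ± 0.18, adjusted p = 0.0276), and 41.3 CPM in BAP1 KO libraries and 27.7 CPM in control libraries (adjusted p = 0.0515). Its level was small beside that of ITGB4.

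ITGA6, at chr2:172427336-172506459, encodes the partner chain of ITGB4. It overlaps ITGA6-AS1 and PDK1-AS1, neither of which passed the filter on low counts. It had 163 and 244 CPM in MLL4 KO libraries, against 165 and 148 CPM in WT libraries. One MLL4 KO library lay within the WT range and the other above it, and the log2 fold change of 0.37 ± 0.17 did not pass (adjusted p = 0.152). Without MLL4 KO replicate 1 it was 0.64 and passed (adjusted p = 0.0201). ITGA6 in BAP1 KO libraries was at 172 and 164 CPM, against 245 and 250.3 CPM in control libraries. The control libraries were the highest of the 8, and the log2 fold change was -0.56 ± 0.17 (adjusted p = 0.0464), a call that 7 of 21 alternatives lost. Its adjusted p was 0.176 or 0.179 without BAP1 KO replicate 1 or 2, and 0.177 or 0.197 without control replicate 1 or 2. Of the 2 chains of this integrin, ITGB4 was called and ITGA6 was not in MLL4 KO, and the signs were opposite in BAP1 KO. Both BAP1 KO calls were near the threshold and were lost when any 1 of the BAP1 KO and control libraries was left out. Whether the changes of the 2 chains differ was not tested.

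ITGA3, at chr17:50056110-50090481, encodes the alpha chain of the other laminin-332 receptor. Its level was 738 and 1143 CPM in MLL4 KO libraries, against 412 and 320.2 CPM in WT libraries. Both MLL4 KO libraries exceeded both WT libraries, although they also differed from each other. ITGA3 changed by a log2 fold change of 1.36 ± 0.21 (adjusted p = 0.00865), or 2.57-fold, and in the fit on the MLL4 KO and WT libraries alone the adjusted p was 0.0677. ITGA3 in BAP1 KO libraries was at 1071 and 1269 CPM, against 2199.8 and 2175 CPM in control libraries. The BAP1 KO libraries were lower without overlap, with a log2 fold change of -0.90 ± 0.21 (adjusted p = 0.0151). Without BAP1 KO replicate 1 the adjusted p was 0.128, and without control replicate 1 or 2 it was 0.0922 or 0.0808.

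ITGB1, the beta chain that pairs with ITGA3, was at 376 and 574 CPM in MLL4 KO libraries, against 408 and 524 CPM in WT libraries, and these overlapped. In BAP1 KO libraries it was at 511 and 551 CPM, against 1114 and 1108 CPM in control libraries. ITGB1 thus fell in the same knockout as ITGA3, by a log2 fold change of -1.06 ± 0.20 (adjusted p = 0.00561), and without BAP1 KO replicate 1 the adjusted p was 0.0640.

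CD151, at chr11:832952-838831, the tetraspanin gene, was called in neither knockout. It had 226 and 247 CPM in MLL4 KO libraries, against 192 and 192 CPM in WT libraries. The MLL4 KO libraries were slightly higher without overlap, and the log2 fold change of 0.30 ± 0.14 did not pass (adjusted p = 0.153). CD151 in BAP1 KO libraries was at 205 and 269 CPM, which enclosed the 230.1 and 226 CPM of the control libraries. Its log2 fold change there was 0.05 ± 0.14 (adjusted p = 0.818).

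COL17A1, at chr10:104031286-104085880, encodes the transmembrane collagen of the hemidesmosome, whose ectodomain reaches into the basement membrane. Its level was 4.85 and 4.22 CPM in MLL4 KO libraries, against 3.30 and 5.78 CPM in WT libraries. The WT libraries enclosed the MLL4 KO libraries, and the log2 fold change was -0.02 ± 0.28 (adjusted p = 0.976). COL17A1 in BAP1 KO libraries had 0.287 and 0.356 CPM, from 9 and 10 reads, against 3.68 and 3.00 CPM in control libraries, from 94 and 117 reads. The BAP1 KO libraries were the lowest of the 8 by a wide margin. Its log2 fold change there was -3.35 ± 0.47 (adjusted p = 0.00149), or 10.2-fold lower, and the call held in all 21 alternatives, while the reads behind the BAP1 KO value were few.

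PLEC encodes plectin, the plakin that ties the ITGB4 tail to intermediate filaments. It stood at 3079 and 2789 CPM in MLL4 KO libraries, against 1551 and 1515.5 CPM in WT libraries. Both MLL4 KO libraries were higher than the other 6. A log2 fold change of 0.94 ± 0.12 (adjusted p = 0.00485) ranked 60 by p, and in the fit on the MLL4 KO and WT libraries alone the adjusted p was 0.0544. PLEC in BAP1 KO libraries was at 1365 and 1426 CPM, against 2193 and 2184 CPM in control libraries. The groups were apart, with a log2 fold change of -0.65 ± 0.12 (adjusted p = 0.00480), and without control replicate 1 or 2 the adjusted p was 0.0583 or 0.0574. From high to low the groups ran MLL4 KO, control, WT and BAP1 KO, with no overlap.

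DST, at chr6:56457996-56954830 on the minus strand, encodes dystonin, a plakin with neuronal, muscle and epithelial forms, of which the epithelial form is the hemidesmosomal one. It had 234 and 332.03 CPM in MLL4 KO libraries, against 295 and 217 CPM in WT libraries. These overlapped, and the log2 fold change was 0.15 ± 0.19 (adjusted p = 0.609). DST in BAP1 KO libraries stood at 1505 and 1399 CPM, against 209 and 215 CPM in control libraries. Both BAP1 KO libraries lay above the other 6 by more than the whole spread of those 6. The log2 fold change was 2.77 ± 0.20 (adjusted p = 5.23e-05), ranking 44 by p.

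The row that stood for DST is the longest transcript, at 24709 bases, so the row of the epithelial form, at 8987 bases, was read beside it. The epithelial row in BAP1 KO libraries was at 20.7 and 17.4 RPKM, against 2.35 and 2.57 RPKM in control libraries. Used in place of the longest row, it gave a log2 fold change of 2.89 (adjusted p = 0.000218) in BAP1 KO and 0.18 (adjusted p = 0.607) in MLL4 KO. Its RPKM was 0.366 to 0.440 of that of the longest row across the 8 libraries. The rows share exons, so which form carried the rise in BAP1 KO was not tested. The antisense gene DST-AS1, which overlaps DST, averaged 1.05 CPM in BAP1 KO libraries and 0.176 CPM in control libraries (log2 fold change 2.73 ± 0.84, adjusted p = 0.0420), a small level beside DST. Its adjusted p was up to 0.319 without any 1 of the BAP1 KO and control libraries.

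**Figure D4:**
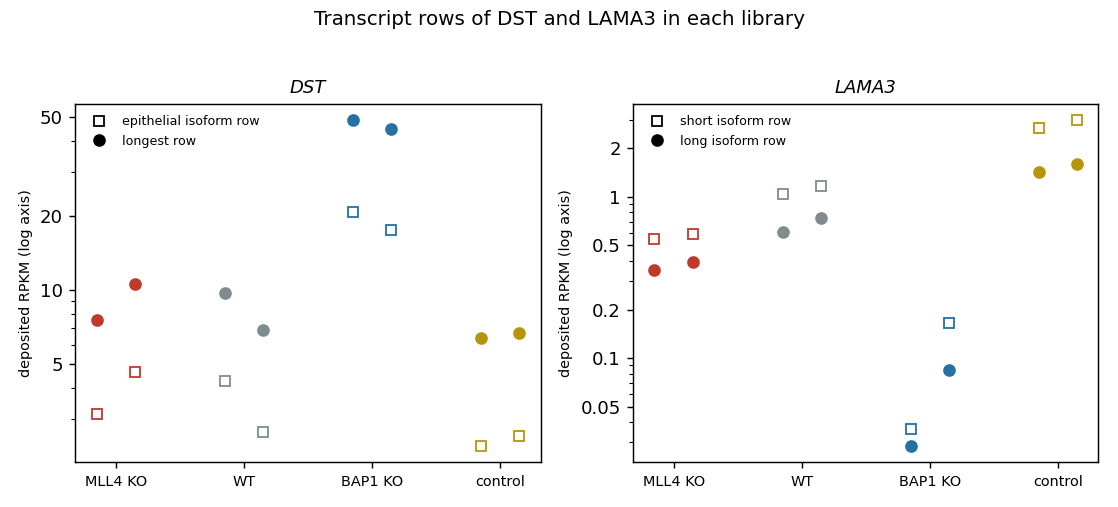
Deposited RPKM on a log axis is shown per library for 2 transcript rows of DST (left) and of LAMA3 (right), with circles for the long row and open squares for the epithelial row of DST or the short row of LAMA3. Both rows of DST are highest in BAP1 KO libraries, and both rows of LAMA3 are lowest there.

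The changes in the 2 knockouts were then compared directly, as the MLL4 KO effect minus the BAP1 KO effect in 1 model. They differed for 8 of 9 members, all but CD151, with 7 positive differences and 1 negative. Over all tested genes 16.1% differed, 7.75% positive and 8.32% negative. For LAMA3, both of whose changes were falls, the difference of the log2 fold changes was 3.96 ± 0.44 (adjusted p = 0.00114). For DST it was -2.63 ± 0.27 (adjusted p = 0.000903), and for ITGB4 1.96 ± 0.20 (adjusted p = 0.000934). The differences for LAMB3 (2.68 ± 0.62, adjusted p = 0.0348) and ITGA6 (0.93 ± 0.25, adjusted p = 0.0331) each lost their call in 6 of 20 alternatives. For LAMB3 these were no filter on low counts and leaving out MLL4 KO replicate 2 or any WT or control library, with adjusted p up to 0.117. For ITGA6 they were leaving out MLL4 KO replicate 2, WT replicate 2 or any BAP1 KO or control library, with adjusted p up to 0.121.

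The unedited groups themselves differed. In control libraries against WT libraries 39.6% of all tested genes were called, 19.9% higher and 19.7% lower. Of the 9 members 6 were called, all higher in control, namely ITGA3 (log2 fold change 2.58 ± 0.22, adjusted p = 6.63e-05), LAMB3 (2.32 ± 0.45, adjusted p = 0.00801), ITGB4 (1.48 ± 0.15, adjusted p = 0.000128), LAMA3 (1.23 ± 0.24, adjusted p = 0.00365), ITGA6 (0.66 ± 0.17, adjusted p = 0.0149) and PLEC (0.51 ± 0.12, adjusted p = 0.00772). The adjusted p of LAMB3 was 0.0534 without WT replicate 1, that of PLEC 0.0639 or 0.0697 without control replicate 1 or 2, and that of ITGA6 up to 0.0820 without WT replicate 2 or either control library. COL17A1, not called with all libraries, was lower in control without WT replicate 1 (-0.81, adjusted p = 0.0354). For ITGB4 the BAP1 KO libraries, which exceeded control, therefore also lay above both WT libraries. For LAMB3 the BAP1 KO libraries, far below control, overlapped the WT libraries, as did those for ITGA6. For ITGA3 the BAP1 KO libraries lay below both control libraries and above both WT libraries. For LAMA3, COL17A1 and PLEC they lay below all control and WT libraries. A level in BAP1 KO cells set against WT would thus read differently from 1 set against control, and each knockout value holds for its own reference.

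Among 9 other laminin chains, 7 could be tested, where of all tested genes 19.1% were called in MLL4 KO and 22.4% in BAP1 KO. In MLL4 KO, LAMB1 and LAMC3 rose and none fell (median log2 fold change 0.54). LAMB1, a beta chain of other laminins, was at 74.6 and 83.0 CPM in MLL4 KO libraries, against 57.7 and 50.7 CPM in WT libraries (log2 fold change 0.54 ± 0.12, adjusted p = 0.0212). In BAP1 KO, LAMB1 rose and LAMC1 and LAMA4 fell (median -0.19, also with LAMA4 at the bound given here). LAMB1 was at 149.9 and 138 CPM in BAP1 KO libraries, against 76.7 and 80.5 CPM in control libraries (0.87 ± 0.12, adjusted p = 0.00139). LAMC1, the gamma chain of most other laminins, went the other way, with 74.8 and 78.6 CPM in BAP1 KO libraries, against 212 and 219 CPM in control libraries (-1.49 ± 0.19, adjusted p = 0.000813). LAMA4, the alpha chain of endothelial and mesenchymal laminins, had no read in either BAP1 KO library, against 3.06 and 3.77 CPM in control libraries, which is at least 28.6-fold lower by a floor of 3 counts per library, set against the lower control library.

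Of 18 other integrin subunits, 15 were tested, beside a share called over all tested genes of 19.1% in MLL4 KO and 22.4% in BAP1 KO. In MLL4 KO 4 rose and none fell, and the smallest p was that of ITGA2, a collagen receptor chain, at 122 and 128 CPM in MLL4 KO libraries, against 58.6 and 41.7 CPM in WT libraries (1.32 ± 0.16, adjusted p = 0.00353). The others were ITGA9 (1.80 ± 0.32, adjusted p = 0.0116), ITGA5 (0.49 ± 0.12, adjusted p = 0.0275) and ITGA7 (adjusted p = 0.0322). In BAP1 KO 5 rose and 2 fell. ITGA2 rose there too (1.06 ± 0.15, adjusted p = 0.00166), as did ITGA9 (3.39 ± 0.43, adjusted p = 0.000849). ITGA10, another collagen receptor chain, was at 19.6 and 13.0 CPM in BAP1 KO libraries, against 1.92 and 1.39 CPM in control libraries (3.33 ± 0.29, adjusted p = 0.000144). Among the 4 laminin receptors that are not integrins, BCAM rose in MLL4 KO (1.09 ± 0.27, adjusted p = 0.0304) and in BAP1 KO (0.92 ± 0.27, adjusted p = 0.0412). The proteoglycan SDC1 fell in MLL4 KO (-1.02 ± 0.20, adjusted p = 0.0151), as did DAG1, and SDC4 fell in BAP1 KO (-0.96 ± 0.24, adjusted p = 0.0235).

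Of 13 other basement membrane components tested, 2 rose and none fell in each knockout, where 19.1% of all tested genes were called in MLL4 KO and 22.4% in BAP1 KO. They were the type IV collagens COL4A5 (0.85 ± 0.18, adjusted p = 0.0187) and COL4A3 (1.19 ± 0.30, adjusted p = 0.0299) in MLL4 KO, and FRAS1 (1.32 ± 0.21, adjusted p = 0.00317) and SPARC (3.56 ± 0.82, adjusted p = 0.0143) in BAP1 KO. SPARC rested on few reads, 90 and 22 in BAP1 KO libraries and 2 and 8 in control libraries. The SPARC call was lost without BAP1 KO replicate 1 or either control library. Of 7 tested proteases known to process laminin-332 or shed collagen XVII, ADAM10 rose in MLL4 KO (0.59 ± 0.15, adjusted p = 0.0261). In BAP1 KO the sheddase ADAM9 rose (0.66 ± 0.15, adjusted p = 0.0156), while ADAM17 and TLL1 fell.

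Of 13 other plakins and keratins, 6 rose and 1 fell in MLL4 KO (median 0.84), and 2 rose and 4 fell in BAP1 KO (median -0.68). The share called over all tested genes was 19.1% in MLL4 KO and 22.4% in BAP1 KO. KRT18, a keratin of simple epithelia, was at 1327 and 1454 CPM in MLL4 KO libraries, against 707 and 672 CPM in WT libraries (1.01 ± 0.12, adjusted p = 0.00394). In BAP1 KO libraries KRT18 was at 506 and 574 CPM, against 1068 and 1066 CPM in control libraries (-0.98 ± 0.12, adjusted p = 0.000787). Its partner KRT8 rose in MLL4 KO (0.74 ± 0.12, adjusted p = 0.00897) and fell in BAP1 KO (-0.69 ± 0.12, adjusted p = 0.00356). These 2 keratins thus took the same directions as PLEC. The plakin EVPL did not, as it rose in BAP1 KO (0.93 ± 0.13, adjusted p = 0.00120). In MLL4 KO EVPL did not pass (-0.08 ± 0.13, adjusted p = 0.664). KRT20, an intestinal keratin, rose in MLL4 KO (2.89 ± 0.41, adjusted p = 0.00684) and in BAP1 KO (3.43 ± 0.31, adjusted p = 0.000198), at no more than 7.59 CPM. KRT15 fell in MLL4 KO (-1.99 ± 0.17, adjusted p = 0.00119) and in BAP1 KO (-1.05 ± 0.14, adjusted p = 0.00120).

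Of 12 tetraspanins tested other than CD151, 2 rose and 1 fell in MLL4 KO, where 19.1% of all tested genes were called, and 1 rose and 2 fell in BAP1 KO, where 22.4% were, with TSPAN14 lower in both (adjusted p = 0.0173 in MLL4 KO and 0.0147 in BAP1 KO). CD82 rose in MLL4 KO (1.08 ± 0.26, adjusted p = 0.0245) and so did CD9 (0.56 ± 0.13, adjusted p = 0.0225). Of 19 focal adhesion adaptors, 3 rose in MLL4 KO, and 4 rose and 1 fell in BAP1 KO. The tensin TNS1 rose in MLL4 KO (0.99 ± 0.20, adjusted p = 0.0159) and in BAP1 KO (1.00 ± 0.21, adjusted p = 0.00895), and TNS4 fell in BAP1 KO (-1.17 ± 0.26, adjusted p = 0.0133).

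**Figure D5:**
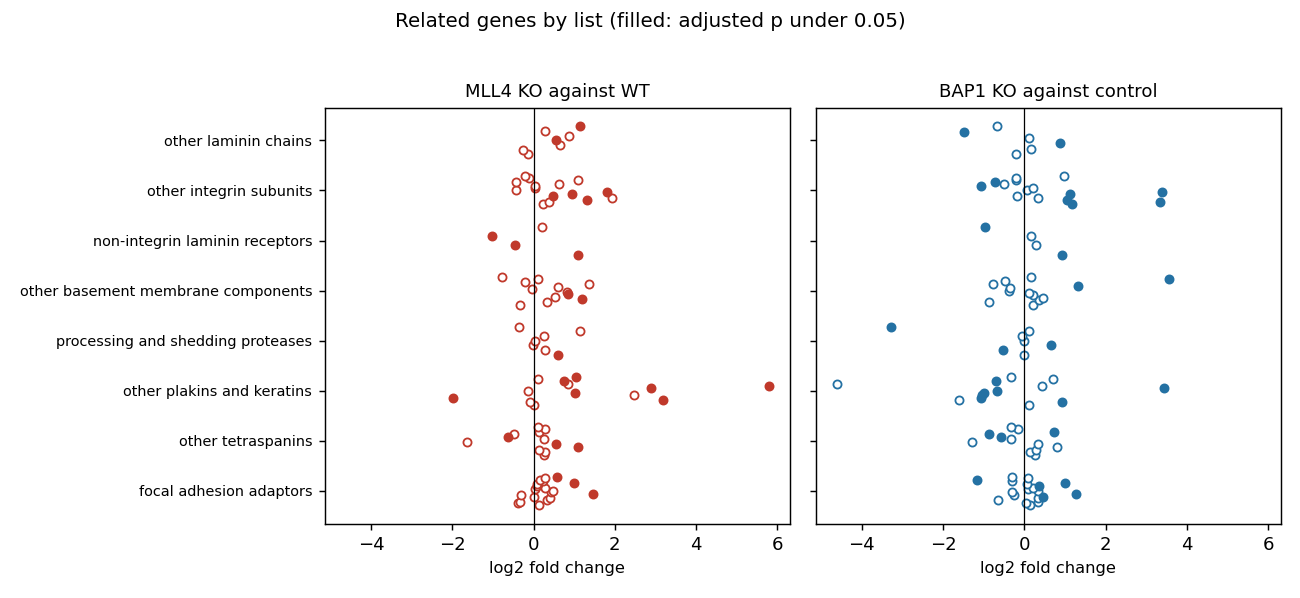
Each point is the log2 fold change of 1 tested gene (x axis) in 8 lists of related genes (rows), for MLL4 KO against WT (left) and BAP1 KO against control (right), filled where the adjusted p was under 0.05. LAMA4 in BAP1 KO and COL15A1 in MLL4 KO are not drawn, and in MLL4 KO the row of plakins and keratins has 7 filled points, 6 of them above 0.

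These calls rested unevenly on single libraries. Of 27 related, overlapping or marker genes called in MLL4 KO, ITGA2, KRT8, KRT15, KRT18 and KRT20 kept their call whichever of the 8 libraries was left out, and in the fit on the MLL4 KO and WT libraries alone KRT15 and KRT18 did. Of 36 called in BAP1 KO, LAMB1, LAMC1, ITGA2, ITGA9, ITGA10, FRAS1, EVPL, KRT15, KRT18, KRT20 and EPCAM kept theirs under all 21 alternatives, and the other 25 lost it without at least 1 library.

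Markers of cell identity were read beside these results. Summed over the 6 epithelial markers, the level was 5381 to 5450.4 CPM in MLL4 KO libraries, against 3716 to 3838 CPM in WT libraries, and 3008 to 3570.2 CPM in BAP1 KO libraries, against 5879.9 to 5892 CPM in control libraries. In BAP1 KO 5 of the 6 were called lower, as were 10.4% of all tested genes. Among them was CDH1, the E-cadherin gene, at 28.05 and 70.2 CPM in BAP1 KO libraries. Control libraries had 233 and 239 CPM of CDH1 (-2.27 ± 0.38, adjusted p = 0.00763). In MLL4 KO, KRT18 and KRT8 were higher and EPCAM lower (-1.12 ± 0.21, adjusted p = 0.0145). KRT19, CLDN4 and CDH1 did not pass there (adjusted p = 0.451, 0.276 and 0.644). The keratins KRT8, KRT18 and KRT19 made up most of each epithelial sum, so the sums chiefly describe these keratins. Of 5 mesenchymal markers, 2 were tested, and VIM was at 11.01 and 5.84 CPM in BAP1 KO libraries, against 0.705 and 0.718 CPM in control libraries (3.56 ± 0.65, adjusted p = 0.00672). COL1A1, the other one tested, was at 54.9 and 43.2 CPM in BAP1 KO libraries, against 48.3 and 54.3 CPM in control libraries. These overlapped, and COL1A1 did not pass (-0.06 ± 0.20, adjusted p = 0.844). The adjusted p of CDH1 was 0.0511 without control replicate 2, and that of VIM up to 0.0792 without control replicate 1 or 2. The summed mesenchymal level was 49.3 to 66.2 CPM in BAP1 KO libraries and 49.2 to 55.2 CPM in control libraries, and 33.1 to 36.2 CPM in MLL4 KO libraries and 26.3 to 41.0 CPM in WT libraries. Of 3 basal keratinocyte markers, KRT5 was at 9.99 and 1.45 CPM in MLL4 KO libraries, against 0.0388 and 0.156 CPM in WT libraries (5.78 ± 1.31, adjusted p = 0.0264). KRT14 was at 1.09 and 0.482 CPM in MLL4 KO libraries, against 0 and 0.156 CPM in WT libraries (3.19 ± 0.88, adjusted p = 0.0324). The KRT5 call was lost in 6 of 22 alternatives and the KRT14 call in 13 of 21. TP63 had at most 0.233 CPM in any library. The colon markers summed to 26.5 to 34.8 CPM per library, mostly from CDX2 and VIL1, and CDX2 was lower in BAP1 KO (-0.70 ± 0.15, adjusted p = 0.0106, and up to 0.109 without BAP1 KO replicate 2 or either control library). VIL1 was at 17.2 and 15.7 CPM in BAP1 KO libraries, against 12.5 and 11.9 CPM in control libraries, and did not pass (0.44 ± 0.17, adjusted p = 0.0895). The part of these markers in the members' changes was not tested.

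As a description of which genes varied most like the members, Pearson correlations of log2(CPM + 1) were taken over the 8 libraries, which share their groups, among 12002 tested genes with a mean of at least 5 CPM. Such an r takes no account of the size of a change. The genes most like LAMA3 were EXOSC5 (r = 0.996), TMC5 (r = 0.995), NIBAN2 (r = 0.990) and CAMSAP1 (r = 0.988). CAMSAP1 ran only from 89.9 to 108 CPM over the 8 libraries, where LAMA3 ran from 0.383 to 22.0 CPM. TMC5, for example, was at 8.06 and 8.25 CPM in MLL4 KO libraries, 12.8 and 13.8 CPM in WT libraries, 2.46 and 3.95 CPM in BAP1 KO libraries and 27.2 and 26.9 CPM in control libraries, the same order of groups as LAMA3. Genes most like LAMB3 included RPS12 (r = 0.996) and the claudin CLDN7 (r = 0.996). RPS12 ran from 599 to 1007 CPM, where LAMB3 ran from 24.5 to 283 CPM. Those most like ITGB4 were B9D1 (r = 0.983), R3HDM2 (r = 0.980), TMEM164 (r = 0.980) and FKBP9 (r = 0.976).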

How the data were processed

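The series has 23 samples. Its 8 RNA-seq libraries, made from poly(A)-selected RNA with an NEBNext Ultra II RNA kit per the labels' protocols, were used, and its 15 ChIP-seq samples were not analysed here. The deposited table of a library lists RefSeq transcripts with a whole-number read count, which the authors left without normalization, and with the authors' RPKM, per the file headers. The submitters' processing notes name hg38, bcl2fastq, Bowtie2, STAR and SICER 1.1 without roles. Which tool counted reads, whether it used strand and from which annotation version was not given in the sources used here.

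Transcript identifiers were matched to symbols through the RefSeq gene table (GRCh38.p14), which also gave positions, and 605 rows with no symbol (0.23% to 0.252% of counts) were left out. The row with the highest mean count stood for each gene. Counts were fitted in R 4.3.3 with edgeR 4.0.16 (filterByExpr, TMM, robust quasi-likelihood test, 1 mean per group over all 8 libraries), tested on simulated data first. Contrasts were two-sided with Benjamini-Hochberg adjustment over 16831 genes and a threshold of 0.05. A standard error is the size of the log2 fold change divided by the root of F. RPKM values entered no test, and a floor of 3 counts per library covers counting error only. The members and the gene lists were chosen with earlier results of these data known. Named beside the members were up to 4 called genes per list and knockout with the smallest p, and up to 4 genes most like LAMA3, LAMB3 and ITGB4. Further genes among those most like LAMB3 and one chain of laminin-332 are not reported here. Alternatives were DESeq2 1.42.0, other scalings, filters, dispersions, transcript rows, a fit on 4 libraries, a 1.5-fold test, replicate blocks and leaving out each library.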

Additional observations from a re-analysis of the deposited data

Results flagged for a closer look

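The MLL4 KO effect and the BAP1 KO effect differed past an adjusted p of 0.05 in edgeR's quasi-likelihood test for 8 members, and each is given as the MLL4 KO log2 fold change minus the BAP1 KO log2 fold change. The difference was 3.96 for LAMA3, 2.68 for LAMB3, 0.93 for ITGA6, 1.96 for ITGB4, 2.26 for ITGA3, 3.34 for COL17A1, 1.59 for PLEC and -2.63 for DST. DST was the member whose BAP1 KO change was the higher, and ITGA3 and PLEC were called in opposite directions. Over all tested genes 16.1% differed. The calls of the LAMB3 and ITGA6 differences were each lost in 6 of 20 alternatives.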

How the results depend on the processing

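Over the 4 contrasts, 761 alternative values of members were computed, of which 703 kept their side of the threshold, 688 of them with the same sign and 15 uncalled ones with the other, 56 lost a call, 2 gained one and 0 called values reversed. The ITGB4 call in MLL4 KO and those of LAMA3, COL17A1 and DST in BAP1 KO held under every alternative run for them. The LAMA3 call in MLL4 KO was lost most often, in 13 of 22. Members called in MLL4 KO numbered 1 in the fit on 4 libraries and 3 to 4 with 1 library left out, and members called in BAP1 KO 3 to 8 with 1 library left out. Genes called in MLL4 KO against WT, 3219 in all, numbered 60 in the fit on 4 libraries, 135 against a 1.5-fold change and 530 to 5290 with 1 library left out (lowest without MLL4 KO replicate 2, highest without WT replicate 1). Those called in BAP1 KO against control, 3778 in all, numbered 6660 in the fit on 4 libraries, 1014 against a 1.5-fold change and 1075 to 5014 with 1 library left out (lowest without control replicate 2, highest without WT replicate 1). The cause was not tested. Upper-quartile scaling moved the median MLL4 KO change of all genes to 0.088 and split its calls 1886 higher and 1211 lower.

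The labels do not say whether same-numbered replicates were paired. Correlations of same-numbered deviations were -0.189 between MLL4 KO and WT and -0.00096 between BAP1 KO and control. With 2 libraries per group these correlations cannot decide whether libraries were paired. With the replicate block 2360 genes and 3 members were called in MLL4 KO, and 3312 genes and 6 members in BAP1 KO. On the 4 MLL4 KO and WT libraries alone, blocks added after seeing the data called 521 genes, and with crossed pairing 1073. Depth limits LAMA3 and COL17A1 in BAP1 KO, which rest on 9 to 32 reads per library.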
